A study of Mus musculus with 12 samples.

Results

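The 9 genes described here encode parts of the adhesion machinery with which epithelial cells hold on to the basement membrane: the integrin subunits Itga6, Itgb4, Itga3, Itga2 and Itgb1, the hemidesmosome components Col17a1 and Dst, and the laminin-332 chains Lama3 and Lamb3. They were chosen by gene symbol. Of the probe sets annotated to a single symbol, 21 belonged to these genes, and the one with the highest mean log2 signal over all arrays stood for each gene. All 9 passed the filter on low signal, among 14645 genes tested in all.

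Hemidesmosomes are adhesion plaques on the underside of basal epithelial cells. In them the integrin alpha-6 beta-4 and the transmembrane collagen XVII bind laminin-332 outside the cell, and plectin and dystonin tie them to keratin filaments inside. Integrins built on the beta-1 subunit, with alpha-3 as another laminin receptor and alpha-2 as a collagen receptor, act at focal adhesions and lateral cell borders instead.

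RNA was measured on 12 Affymetrix arrays, 3 in each of 4 groups of prostate epithelial cells sorted from C57BL/6 males: basal cells of castrated mice, basal cells of intact mice, luminal cells of castrated mice and luminal cells of intact mice. Castration was done surgically at 8 weeks of age and tissue was collected 4 weeks later, intact animals being taken alongside. The labels name no transgene or other allele for any group, speak of 3 sets of animals as biological replicates and do not say how many mice a set held. Cells lacking lineage markers and positive for EpCAM were gated as high in the surface protein CD49f for basal cells and low for luminal cells. CD49f is the product of Itga6, so the basal and luminal levels of Itga6 below describe the gate and are not a finding. In such bulk RNA, fewer cells of a type and less RNA per cell cannot be told apart. For every comparison a p-value rests on the spread between arrays within groups. That spread was pooled over the 4 groups of 3 arrays and drawn toward that of genes of like signal.

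The sort labels were checked against marker genes. The summed signal of 5 basal markers was 108379 to 151286 in castrated basal cells and 80540 to 106584 in intact basal cells, against 4916 to 6903 in castrated luminal cells and 4142 to 8671 in intact luminal cells. The sum of 6 luminal markers was 76869 to 93891 and 64931 to 73262 in castrated and intact basal cells, against 110365 to 144530 and 187834 to 207460 in castrated and intact luminal cells. Of the 6, 5 were called lower in basal cells of castrated and of intact mice, at 11.2% and 11% of all genes. Krt18 in castrated mice (0.20) and Hoxb13 in intact mice (-0.99) were not. Pbsn averaged 58.7 in castrated and 8864 in intact basal cells, against 5160 and 61440 in castrated and intact luminal cells. The sum of 8 fibroblast markers was 23897 to 29435 in castrated basal cells and 40053 to 51074 in intact basal cells, against 738 to 959 in castrated luminal cells and 7744 to 14034 in intact luminal cells. It was thus lower after castration in either cell type and lower in luminal than in basal cells, and its part in the results below was not tested. Not all 8 genes followed it. By castration, 6 were called lower in luminal and 4 in basal cells, at 2.96% and 1.5% of all genes. Dcn, most of the sum in castrated basal cells, gave a log2 difference of 0.06 by castration there. Called higher in basal cells were 4 of the 8 in castrated and 3 in intact mice, at 7.22% and 8.45% of all genes. Sums of 7 leukocyte markers stood at 10086 to 12635 in intact luminal cells, mostly from Cd52, against at most 2347 on any other array, while Ptprc, the pan-leukocyte antigen CD45, was at 32.9 to 57.1 there. Over all genes the median log2 difference by castration was -0.09 in luminal and -0.11 in basal cells. Centring every array on its median moved these medians by 0.21 and 0.30, and moved the share of higher genes among those called to 69.9% in luminal cells, against 49.4% without it, and to 76.7% in basal cells, against 42.7%.

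Promoter windows, 250 bases before to 50 bases after an annotated start, are shown for the genes that the results turn on, namely Col17a1, with the widest basal to luminal difference among the chosen probe sets, Itga2, which rose on castration, and Dst, with 4 probe sets whose differences were of unequal size. They are RefSeq sequences on GRCm38.p6. Capitals mark matches, on either strand, to a TATA box (TATAAA), a GC box (GGGCGG), an AP-1 site (TGANTCA) or the p53-family core. Over 32851 mouse promoter windows these were found in 13.6%, 35.7%, 7.81% and 8.36%, in the same order. No matches overlapped in the windows shown. Col17a1 lies on the minus strand (window chr19:47691993-47692292) and held 2 TATA boxes, 140 and 91 bases before the start, and 1 p53-family core starting at base 16 after it.
Col17a1: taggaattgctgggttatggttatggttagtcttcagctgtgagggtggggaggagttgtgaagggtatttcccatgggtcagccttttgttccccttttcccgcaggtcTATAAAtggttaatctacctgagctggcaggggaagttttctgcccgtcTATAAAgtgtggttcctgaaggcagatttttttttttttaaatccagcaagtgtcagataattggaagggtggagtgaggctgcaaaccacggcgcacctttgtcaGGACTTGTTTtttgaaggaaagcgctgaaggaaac
The Itga2 window (chr13:114932051-114932350, minus strand) held 1 GC box starting at base 3 after the start.
Itga2: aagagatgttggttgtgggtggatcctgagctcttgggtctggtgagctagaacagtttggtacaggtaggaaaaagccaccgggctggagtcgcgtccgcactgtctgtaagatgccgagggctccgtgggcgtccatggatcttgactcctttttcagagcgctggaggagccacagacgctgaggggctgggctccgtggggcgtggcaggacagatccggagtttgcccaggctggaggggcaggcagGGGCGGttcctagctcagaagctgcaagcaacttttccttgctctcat
Dst has 2 windows in the table, both on the plus strand. The upstream one (chr1:34011345-34011644) held 4 GC boxes, and the other (chr1:34160010-34160309) held none of the 4 motifs.
Dst upstream start: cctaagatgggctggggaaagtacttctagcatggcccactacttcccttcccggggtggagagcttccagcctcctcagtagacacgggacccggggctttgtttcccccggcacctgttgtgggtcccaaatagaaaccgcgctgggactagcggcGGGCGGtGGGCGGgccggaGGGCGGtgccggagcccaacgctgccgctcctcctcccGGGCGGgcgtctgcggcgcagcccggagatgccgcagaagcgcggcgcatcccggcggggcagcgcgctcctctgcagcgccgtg
Dst downstream start: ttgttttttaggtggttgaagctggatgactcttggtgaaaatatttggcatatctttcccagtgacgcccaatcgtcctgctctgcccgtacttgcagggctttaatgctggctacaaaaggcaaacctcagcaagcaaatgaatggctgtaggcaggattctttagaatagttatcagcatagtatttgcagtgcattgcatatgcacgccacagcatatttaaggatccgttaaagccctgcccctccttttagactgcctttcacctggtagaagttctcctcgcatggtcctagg
These matches describe letters only, and no measurement here bears on binding. Of the other genes, Itga3 had 2 windows, Itgb1 had 1 and Lamb3 had 2. Sequences of Itga6, Itgb4 and Lama3 were not used here.

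Basal cells had more RNA than luminal cells of nearly every gene of the set. In castrated mice 8 of 9 genes were higher in basal cells, and in intact mice 9 of 9, with Itga6 counted in both. Among all genes tested, 18.4% were called in castrated mice (7.22% as higher) and 19.5% in intact mice (8.45% as higher). The median log2 difference over the 9 genes was 2.13 in castrated and 2.47 in intact mice, where the medians over all genes were -0.09 and -0.07. Groups were compared with limma on log2 of signal plus 16, a threshold of 0.05 was set on p-values adjusted over all genes, and "called" means past it. No other gene of the set was gated on, although CD49f pairs with the products of Itgb4 and Itgb1.

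**Figure D1:**
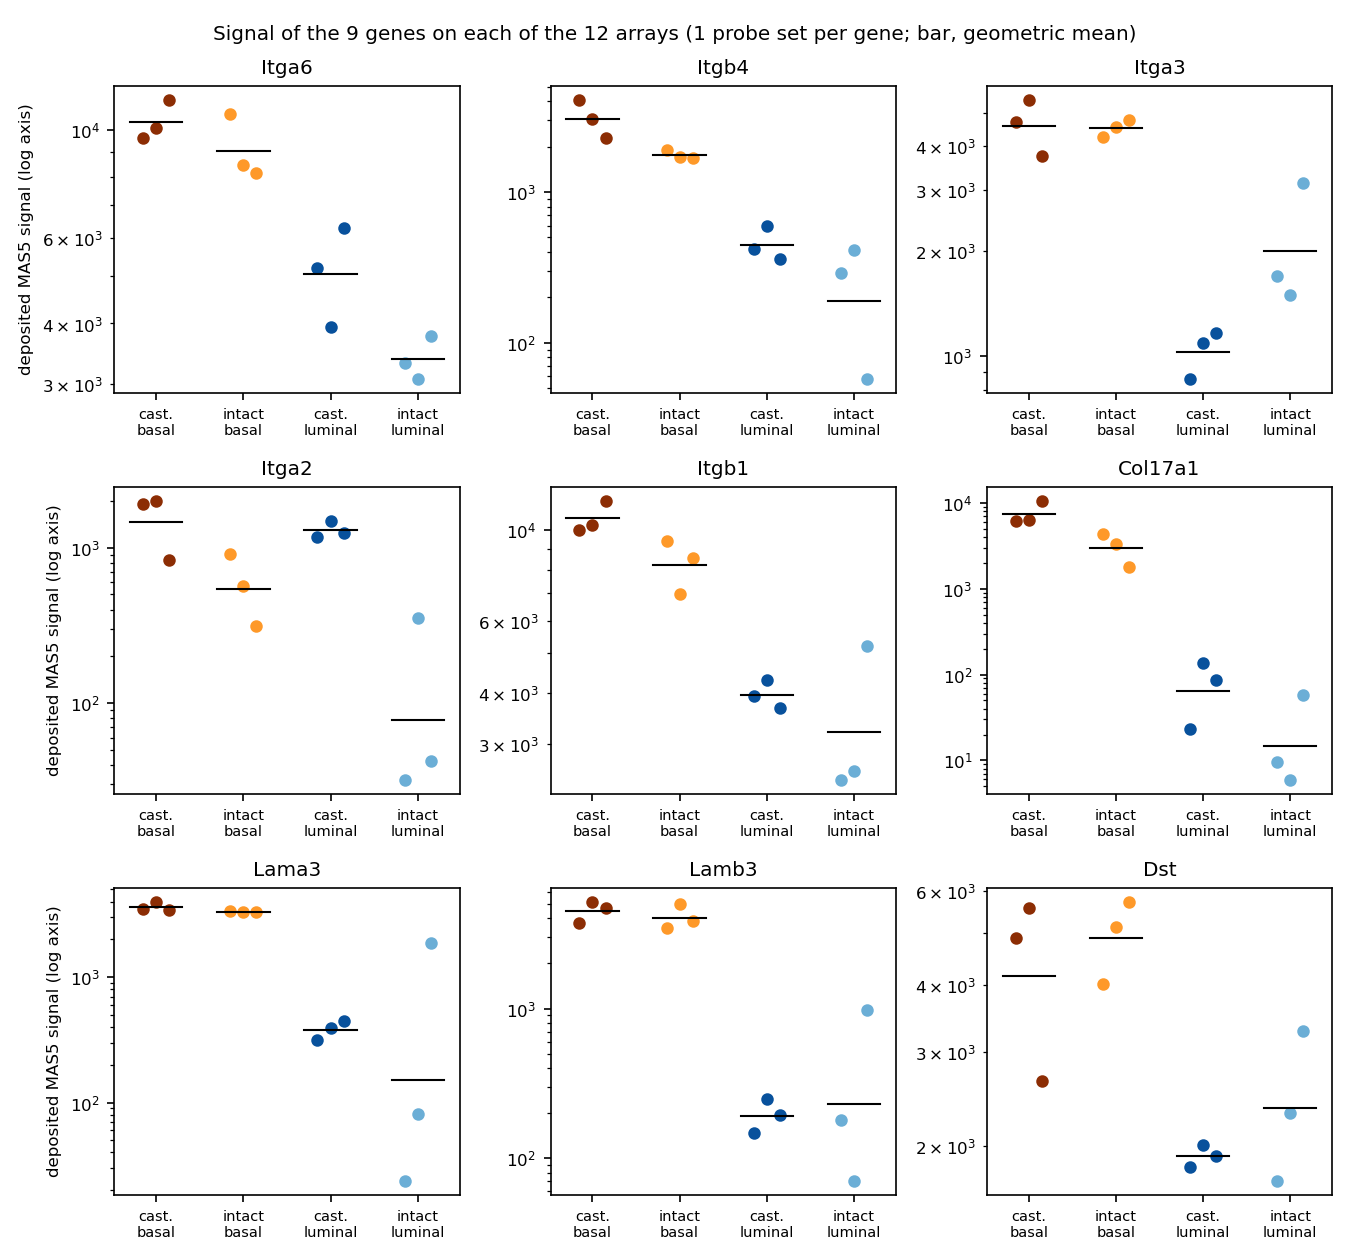
Deposited signal (log axis) of each of the 9 genes on the 3 arrays of castrated basal, intact basal, castrated luminal and intact luminal cells; points are arrays and bars geometric means. For all genes but Itga2, every castrated basal array lies above every castrated luminal array. The share of all genes tested with such separation was not counted.

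Col17a1, collagen XVII, had the widest basal to luminal difference among the chosen probe sets. Its signal was 6128, 6408 and 10560 in castrated basal cells and 4305, 3360 and 1790 in intact basal cells. It was 23.1, 135 and 86.9 in castrated luminal cells and 9.52, 5.89 and 57.95 in intact luminal cells, where the 40th percentile of an array lay at 33.3 to 35.3 and at 46.8 to 56.1. Basal arrays thus stood far above luminal arrays, and castrated luminal replicate 1 and intact luminal replicates 1 and 2 were below the 40th percentile of their array. The log2 difference of basal over luminal was 6.46 ± 0.58 in castrated mice (SE, adjusted p = 9.91e-07) and 6.43 ± 0.58 in intact mice (adjusted p = 9.78e-07), and the added 16 makes these smaller than ratios of signal would be.

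Itgb4 encodes the beta-4 subunit, which is found only in the alpha-6 beta-4 pair and carries the long tail that binds plectin. Its signal was 4085, 3033 and 2282 in castrated basal cells and 1892, 1698 and 1676 in intact basal cells, against 422, 593 and 360.2 in castrated luminal cells and 291, 412 and 57.5 in intact luminal cells. The basal and luminal ranges did not overlap in either kind of mouse. The log2 difference of basal over luminal was 2.72 ± 0.52 in castrated mice (adjusted p = 0.00125) and 3.05 ± 0.52 in intact mice (adjusted p = 4.87e-04). Its partner Itga6 had 9601, 10080 and 11520 in castrated basal cells and 10760, 8455 and 8153 in intact basal cells, against 5199, 3942 and 6271 in castrated luminal cells and 3310, 3075 and 3778 in intact luminal cells. As the gate implies, the ranges were apart, by a log2 difference of 1.04 in castrated and 1.42 in intact mice, so cells gated as low in CD49f still gave Itga6 signal of at least 3075 on each array.

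Dst encodes dystonin, whose epithelial form, BPAG1e, links the plaque to keratin, while other forms from the same gene serve nerve and muscle. Its chosen probe set gave 4893, 5579 and 2645 in castrated basal cells and 4009, 5145 and 5719 in intact basal cells, against 1824, 2009 and 1911 in castrated luminal cells and 1718, 2302 and 3280 in intact luminal cells. All basal arrays were above all luminal arrays of the same mice, and the log2 difference was 1.12 ± 0.31 in castrated (adjusted p = 0.0164) and 1.06 ± 0.31 in intact mice (adjusted p = 0.0217). The castrated call was lost without castrated basal replicate 1 or 2 or castrated luminal replicate 1 or 3 (adjusted p 0.0526 to 0.0807), and the intact call without intact basal replicate 2 or 3 or intact luminal replicate 1 or 2 (adjusted p 0.0597 to 0.101).

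Other probe sets of Dst differed far more between the cell types. Probe set 1421117_at gave 23000, 18650 and 19740 in castrated basal cells and 19360, 20720 and 22430 in intact basal cells, against 387, 424 and 224 in castrated luminal cells and 119, 308 and 519 in intact luminal cells. Its log2 differences of basal over luminal were 5.87 in castrated and 6.18 in intact mice, and those of 1450119_at were 5.49 and 6.69. The remaining probe set, 1421276_a_at, differed by 1.75 in castrated mice (adjusted p = 0.00101, over 27554 probe sets) and by 0.82 in intact mice (adjusted p = 0.0906). All 4 probe sets thus read higher in basal cells, by log2 differences between 0.82 and 6.69. Which transcripts each one reads was not tested, and levels of different probe sets cannot be set against each other. When tested singly, 15.7% of probe sets were called between basal and luminal cells in castrated mice and 17.0% in intact mice.

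**Figure D2:**
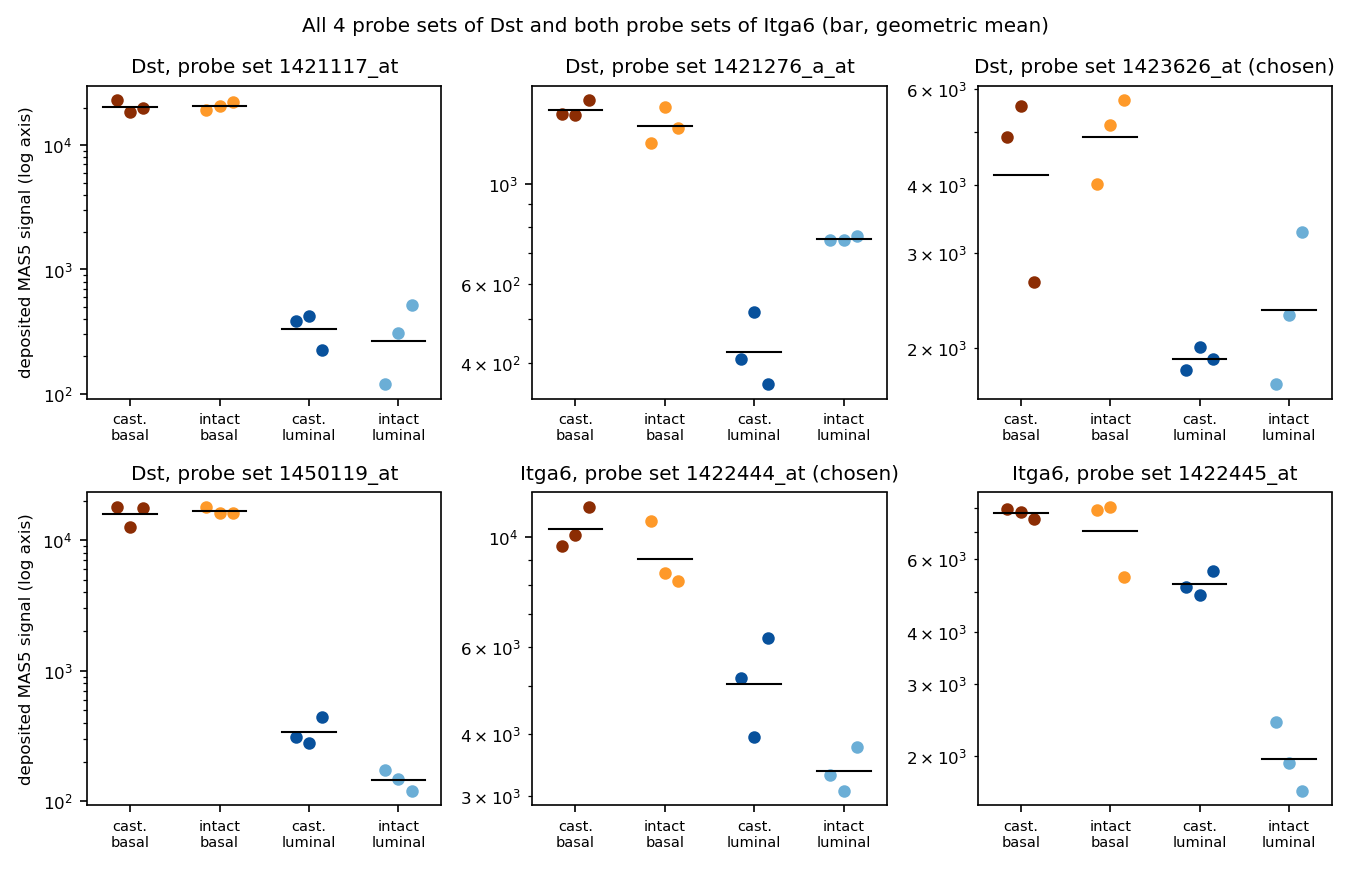
Deposited signal (log axis) of the 4 Dst and 2 Itga6 probe sets on each array of castrated basal, intact basal, castrated luminal and intact luminal cells; points are arrays and bars geometric means. 2 Dst probe sets part basal from luminal arrays by over 5 on the log2 scale and the chosen one by about 1, and the Itga6 probe set 1422445_at shows castrated luminal arrays (4921 to 5628) well above intact luminal arrays (1651 to 2420).

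Laminin-332 is the protein to which hemidesmosomes attach, and Lama3 and Lamb3 encode its alpha-3 and beta-3 chains. Lama3 gave 3520, 3976 and 3423 in castrated basal cells and 3397, 3286 and 3282 in intact basal cells, against 314, 390.1 and 443 in castrated luminal cells and 23.6, 80.7 and 1860 in intact luminal cells. Lamb3 gave 3729, 5157 and 4696 in castrated basal cells and 3445, 4990 and 3875 in intact basal cells, against 147, 249 and 195 in castrated luminal cells and 179.8, 70.3 and 971 in intact luminal cells. The basal arrays of Lama3 lay close together, and for both chains intact luminal replicate 3 stood far above the other luminal arrays, yet below every basal array. For Lama3 the log2 difference of basal over luminal was 3.21 ± 0.88 in castrated mice (adjusted p = 0.0159) and 4.11 ± 0.88 in intact mice (adjusted p = 0.00298). For Lamb3 it was 4.43 ± 0.60 (adjusted p = 6.36e-05) and 3.99 ± 0.60 (adjusted p = 1.68e-04). A dimmer Lama3 probe set, above the 40th percentile on 3 arrays, gave 0.75 and -0.59 in castrated and intact mice and was not called, and with the mean of both probe sets Lama3 passed in neither (adjusted p = 0.0710 and 0.105). Without castrated luminal replicate 1 the castrated difference of the chosen probe set was 3.08 and not called (adjusted p = 0.0578).

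The same intact luminal array, replicate 3, was the highest of its group for 7 of the 9 genes, Itga6, Itga3, Itgb1, Col17a1, Dst, Lama3 and Lamb3, and the lowest for Itgb4. The share of all genes highest on this array was not counted. Its 40th percentile (56.1) and its median signal (89.5) were also the highest of the group. On it the fibroblast sum was 14034, against 8609 and 7744 on the others, the smooth muscle sum was 2015, against 410 and 533, and the endothelial sum was 1105, against 434 and 356. Of the 5 basal markers, Krt5 at 489 (against 20.0 and 191), Krt17 and Trp63 were highest on it, Krt14 lay between the other intact luminal arrays, and Krt15 was lowest, at 3015 against 7218 and 8260. Their sum, mostly Krt15, was the lowest of the group at 4142. The part of these signals in its values was not tested.

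The integrin subunits of focal adhesions were also higher in basal cells. Itgb1, the common beta subunit, gave 9994, 10300 and 11760 in castrated basal cells and 9367, 6963 and 8539 in intact basal cells, against 3931, 4315 and 3673 in castrated luminal cells and 2456, 2585 and 5200 in intact luminal cells. Its ranges did not overlap, and the log2 difference was 1.42 ± 0.25 in castrated (adjusted p = 7.53e-04) and 1.35 ± 0.25 in intact mice (adjusted p = 0.00117). Of its other 5 probe sets, 1 failed the filter on low signal, the other 4 differed by 1.27 to 2.33 in the same direction, with 1426919_at not called in castrated mice and 1426920_x_at in neither kind of mouse. Itga3 gave 4700, 5437 and 3762 in castrated basal cells and 4271, 4555 and 4757 in intact basal cells, against 861, 1093 and 1171 in castrated luminal cells and 1704, 1497 and 3140 in intact luminal cells. Every basal array of Itga3 exceeded every luminal array. The log2 difference was 2.13 ± 0.29 in castrated mice (adjusted p = 7.06e-05) and 1.17 ± 0.29 in intact mice (adjusted p = 0.00944, and 0.0527 without intact luminal replicate 2), and its other 2 probe sets gave 2.40 and 2.30 in castrated and 1.34 and 1.18 in intact mice.

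Itga2, the collagen-binding alpha-2 subunit, was the exception. It gave 1907, 1997 and 839 in castrated basal cells and 906, 564 and 314 in intact basal cells, against 1169, 1487 and 1244 in castrated luminal cells and 32, 353 and 42.2 in intact luminal cells. The basal and luminal ranges overlapped in castrated mice, and in intact mice by a single array on either side. In intact mice basal cells were higher by 2.47 ± 0.65 (adjusted p = 0.0122), a call lost without intact basal replicate 1 (adjusted p = 0.0595), without intact luminal replicate 1 (adjusted p = 0.0640) or in a fit of those 2 groups alone (adjusted p = 0.0600). In castrated mice the log2 difference was 0.19 ± 0.65, with a 95% interval of -1.18 to 1.56 (adjusted p = 0.881).

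**Figure D3:**
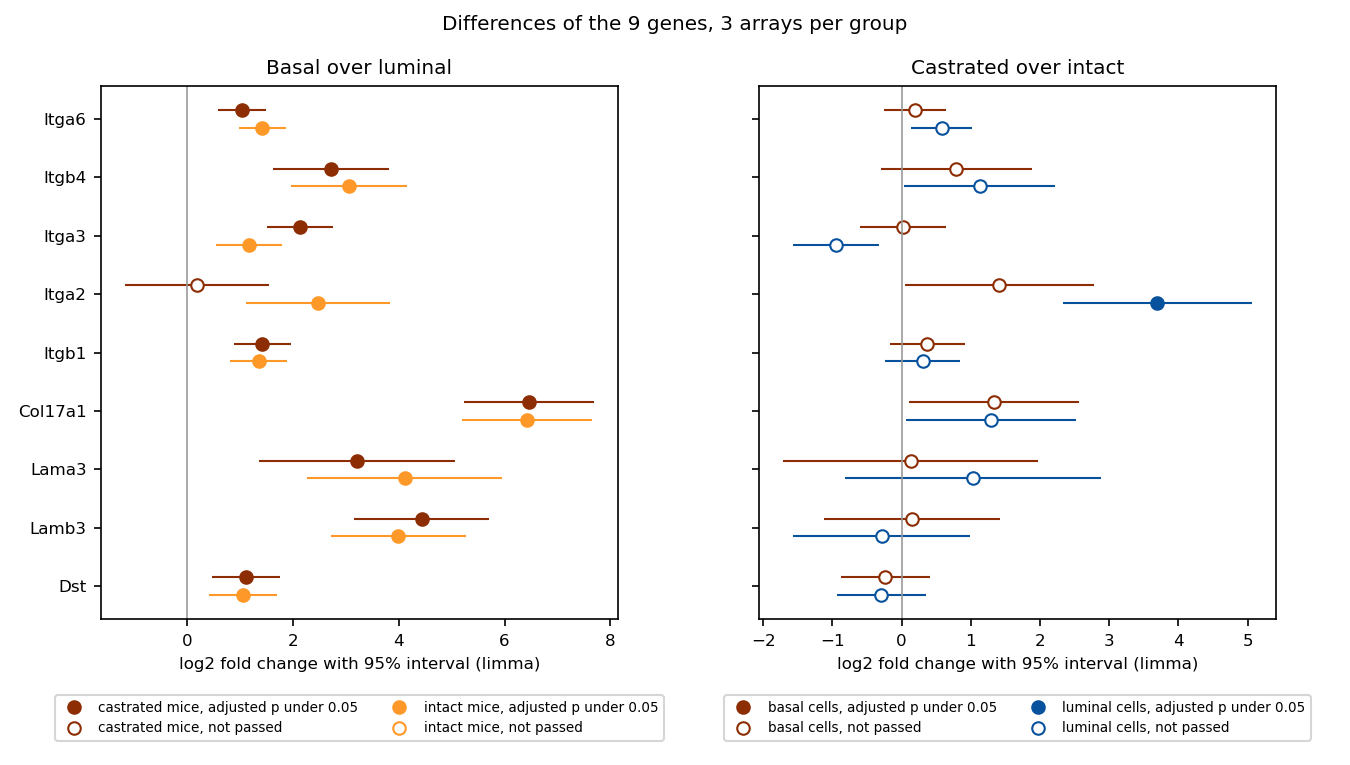
Log2 fold change (points) with its 95% interval (lines) of each of the 9 genes, basal over luminal in castrated and intact mice at left and castrated over intact in basal and luminal cells at right; filled points passed an adjusted p of 0.05. The left panel is filled throughout except Itga2 in castrated mice, and the right panel is open throughout except Itga2 in luminal cells, at 3.70.

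By castration, through the chosen probe sets, 1 of the 9 genes was called in luminal cells, Itga2, and none in basal cells. In luminal cells 5.86% of all genes tested were called (2.90% as higher) and in basal cells 2.62%. At an unadjusted p under 0.05, limma counted 5 of the 9 genes in luminal and 2 in basal cells, where 19.3% and 17.8% of all genes were under it. The median log2 difference over the 9 genes was 0.58 in luminal cells and 0.20 in basal cells.

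Itga2 rose in luminal cells to a mean signal of 1300 ± 166 in castrated mice, against 142 ± 182 in intact mice (SD, n = 3 each). All castrated luminal arrays, at 1169 or more, exceeded all intact luminal arrays, of which 2 were below the 40th percentile of their array and the highest was 353. The log2 difference was 3.70 ± 0.65, with a 95% interval of 2.33 to 5.06 (adjusted p = 0.00213). This call was kept in all 25 alternative analyses, with values from 3.07 to 4.63 and adjusted p from 1.28e-04 to 0.0236. In basal cells Itga2 averaged 1581 ± 644 in castrated mice and 595 ± 298 in intact mice (SD, n = 3 each), the ranges overlapped by 1 array on either side, and the log2 difference of 1.41 ± 0.65 did not pass (adjusted p = 0.265). The castration effect in basal cells minus that in luminal cells was -2.29 ± 0.92 (95% interval -4.22 to -0.35) and did not pass either (adjusted p = 0.298), so a difference between the cell types was not shown. The groups ranked castrated basal, castrated luminal, intact basal and intact luminal by mean log2 signal, and the first 2 did not differ beyond their spread.

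The hemidesmosome integrin showed no called change through its chosen probe sets. Itga6 in castrated luminal cells lay above intact luminal cells on every array, by 0.58 ± 0.21 (adjusted p = 0.128), and in basal cells the log2 difference was 0.20 ± 0.21 (adjusted p = 0.687). Its other probe set, 1422445_at, gave 5136, 4921 and 5628 in castrated luminal cells, against 2420, 1926 and 1651 in intact luminal cells. That difference of 1.40 ± 0.22 passed (adjusted p = 9.60e-04, over 27554 probe sets, of which 4.98% were called). In basal cells this probe set gave 7959, 7820 and 7524 in castrated mice, against 7896, 8042 and 5431 in intact mice, and the log2 difference was 0.15. Of single probe sets 1.93% were called by castration in basal cells and 0.864% for the difference between cell types, where this one gave -1.25 ± 0.31 (adjusted p = 0.0734). The 2 probe sets therefore agreed in direction and differed in whether luminal Itga6 passed, and averaging them gave 0.99, which passed. Both luminal groups were gated as low in CD49f, the product of Itga6. The part of the gate in these luminal differences was not tested.

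Itgb4 differed by 1.13 ± 0.52 in luminal cells (adjusted p = 0.243) and by 0.79 ± 0.52 in basal cells (adjusted p = 0.458), neither of them called. In basal cells every castrated array exceeded every intact array, whereas in luminal cells the ranges overlapped, and without intact luminal replicate 3 the luminal value was 0.36. Col17a1 stood at 1.29 ± 0.58 in luminal cells (adjusted p = 0.231), with overlapping ranges and dim signal, and at 1.33 ± 0.58 in basal cells (adjusted p = 0.239). Its basal arrays did not overlap, averaging 7700 ± 2484 in castrated mice and 3152 ± 1270 in intact mice (SD, n = 3 each). Without the 4 arrays numbered 3 the basal difference was 0.72. The chosen Dst probe set gave -0.29 ± 0.31 in luminal and -0.24 ± 0.31 in basal cells (adjusted p = 0.660 and 0.744). Among its others, 1450119_at was called higher in castrated luminal cells, at 309, 282 and 444, against 175, 148 and 120.2 in intact luminal cells, a difference of 1.13 ± 0.28 (adjusted p = 0.0251). Probe set 1421276_a_at went the other way, at 407.5, 520 and 358 in castrated luminal cells, against 749, 748 and 765 in intact luminal cells. That difference of -0.81 ± 0.32 was not called (adjusted p = 0.172), and 1421117_at gave 0.29, so the Dst probe sets disagreed in sign.

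The luminal values of the laminin-332 chains moved with single intact luminal arrays. Lama3 differed by 1.03 ± 0.88 in luminal cells (adjusted p = 0.571), with a 95% interval of -0.81 to 2.88. Without intact luminal replicate 3, at 1860, the value was 2.67 and passed (adjusted p = 0.00107), and without intact luminal replicate 1, at 23.6, it was -0.11. Lamb3 differed by -0.29 ± 0.60 (adjusted p = 0.848), by 0.68 without replicate 3 (adjusted p = 0.473) and by -1.07 without replicate 2, at 70.3. In basal cells Lama3 averaged 3640 ± 296 in castrated and 3322 ± 65.5 in intact mice, and Lamb3 averaged 4527 ± 729 and 4103 ± 798 (SD, n = 3 each). The log2 differences there were 0.13 (95% interval -1.72 to 1.98) and 0.15 (95% interval -1.13 to 1.42), neither of them called.

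Of the beta-1 group, Itga3 had lower signal on all 3 castrated luminal arrays than on any intact luminal array, at a mean of 1042 ± 161, against 2114 ± 895 in intact luminal cells (SD, n = 3 each). The log2 difference was -0.94 ± 0.29 and missed the threshold (adjusted p = 0.0715). It was called under quantile normalization (-1.05, adjusted p = 0.0473), with array weights (-0.78, adjusted p = 0.0253) and without intact luminal replicate 2 (-1.15, adjusted p = 0.0482), and stood at -0.62 without replicate 3 (adjusted p = 0.262). The other Itga3 probe sets, 1421997_s_at and 1460305_at, gave -0.73 and -0.71 in luminal cells, with overlapping ranges. Neither passed (adjusted p = 0.345 and 0.240, over 27554 probe sets). In basal cells the chosen Itga3 probe set differed by 0.02 (95% interval -0.60 to 0.64). Itgb1 differed by 0.30 ± 0.25 in luminal cells (95% interval -0.23 to 0.84) and by 0.37 ± 0.25 in basal cells (95% interval -0.17 to 0.91).

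A difference of the castration effect between basal and luminal cells was called for 0 of the 9 genes by limma, at 1.15% of all genes called. At an unadjusted p under 0.05 were 2, Itga3 and Itga2, where 12.7% of all genes were under it. Itga3 gave 0.96 ± 0.42 (adjusted p = 0.340). Lama3 gave -0.90 ± 1.24, which became -2.54 without intact luminal replicate 3 and then passed (adjusted p = 0.0321). Itga2 passed without intact luminal replicate 2, at -3.22 (adjusted p = 0.0456).

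Of the other integrin subunits, 15 were measured, and 2 were called higher on castration in luminal cells while none was called in basal cells. Among all genes tested, 2.90% were called higher in luminal cells and 2.62% were called in basal cells. Itgb6, the beta subunit that pairs only with alpha-v and helps activate TGF-beta, had 3760, 3385 and 4513 in castrated luminal cells, against 879, 649 and 119 in intact luminal cells, a log2 difference of 3.17 ± 0.52 (adjusted p = 0.00141). Its partner Itgav had 9861, 12160 and 15310 in castrated luminal cells, against 8164, 4797 and 4748 in intact luminal cells, a difference of 1.10 ± 0.22 (adjusted p = 0.00590). Neither pair of groups overlapped, and without castrated luminal replicate 3 Itgav was at 0.94 (adjusted p = 0.0519). In basal cells Itgb6 had 1236, 1545 and 1218 in castrated mice, against 2306, 1411 and 1110 in intact mice, and the effect in basal minus luminal cells was -3.38 ± 0.74 (adjusted p = 0.0350). For Itgav it was -1.42 ± 0.31 (adjusted p = 0.0362). No other integrin gene measured was called for this difference, for which 1.15% of all genes were called. The Itgb6 call was lost in 8 and the Itgav call in 10 of the 12 analyses without 1 array, and the replicate block also ended that of Itgav (adjusted p = 0.0618). Between basal and luminal cells Itgb6 and Itgav were higher in basal cells of intact mice, by 1.85 and 1.02, and Itga9 was higher in basal cells of castrated mice, as the only ones of the 15 to pass. Among all genes, 8.45% were called higher in intact and 7.22% in castrated mice. No size is given for Itga9, which lay below the 40th percentile on all 3 castrated luminal arrays. The median over the 15 was 0.75 in castrated and 1.04 in intact mice, and -0.57 for castration in luminal cells. Without intact basal replicate 1 (1.56, adjusted p = 0.0865) or intact luminal replicate 3 (1.01, adjusted p = 0.0532) the Itgb6 call between cell types of intact mice was lost, and the Itga9 call was lost without castrated basal replicate 1 or castrated luminal replicate 2 or 3 (adjusted p 0.0561 to 0.0760).

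**Figure D4:**
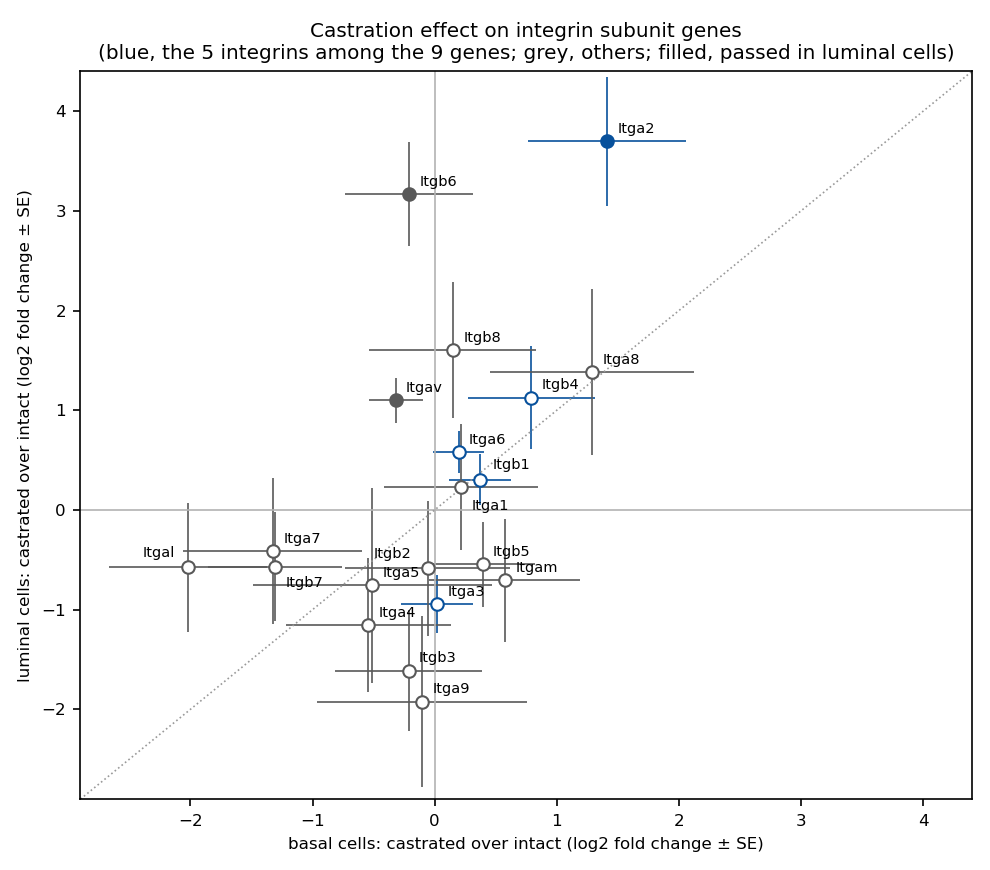
Log2 fold change of castrated over intact with its SE for integrin subunit genes, basal cells on the horizontal and luminal cells on the vertical axis; blue marks the 5 integrins of the set, grey the other 15, and filled points passed in luminal cells. Itga2 (3.70), Itgb6 (3.17) and Itgav (1.10) are the filled points.

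Partners of the hemidesmosome and integrins were mixed between the cell types. Of 7 measured, 3 were higher and 1 lower in basal cells of castrated mice, and 4 were higher in intact mice. Among all genes, 7.22% were called higher and 11.2% lower in castrated mice, and 8.45% higher in intact mice. Krt5 and Krt14, the basal keratins that hemidesmosomes anchor, led with 9.16 and 7.90 in castrated and 7.08 and 7.02 in intact mice, and both also served as markers of the sort. Plec, which encodes plectin, was higher by 1.05 ± 0.25 in intact mice (adjusted p = 0.00591) and differed by 0.24 ± 0.25 in castrated mice (adjusted p = 0.546). Cd151, a tetraspanin bound to laminin-binding integrins, differed by 0.73 ± 0.33 in intact and 0.09 ± 0.33 in castrated mice, neither of them called. Cd81, another tetraspanin, was lower in basal cells of castrated mice, at -0.86 (adjusted p = 0.00501, and 0.0808 without the intensity trend of limma). The median over the 7 was 0.24 in castrated and 0.73 in intact mice. None of the 7 was called by castration in luminal or basal cells, with 2 and 1 at an unadjusted p under 0.05 by limma, against the shares of all genes given above.

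Of 8 other laminin chains, 2 were higher in basal cells of castrated mice (Lama5 at 0.72 and Lamb1 at 3.34) and 3 in intact mice (Lama1 at 3.68, with 2 of 3 intact luminal arrays below the 40th percentile, Lamc1 at 1.34 and Lama5 at 0.77). The Lama5 calls were lost in 9 and in 5 of the 12 analyses that left out 1 array. In castrated luminal cells Lamb1 fell by 2.72 ± 0.62 (adjusted p = 0.0136, and 0.0745 without intact luminal replicate 3 or 0.0812 without castrated luminal replicate 1), and in castrated basal cells Lama2, named after its value was seen, fell by 2.87 ± 0.73 (adjusted p = 0.0449). Of 18 other basement membrane genes, 8 were higher and 1 lower in basal cells of castrated mice, and 10 were higher in intact mice. For this list and the laminin chains, the shares of all genes called higher were 7.22% in castrated and 8.45% in intact mice. Col4a1, a chain of the collagen IV network, differed by 5.71 and 4.31, Col18a1 by 3.85 and 2.84, and Agrn by 1.37 and 2.50 in castrated and intact mice. Col4a2 was higher by 3.69 in intact mice and also called in castrated mice, where no size is given because all 3 castrated luminal arrays lay below the 40th percentile. The median over the 18 was 1.55 in castrated and 1.89 in intact mice, and by castration -1.20 in luminal and -0.81 in basal cells. In castrated luminal cells 4 of the 18 fell, where 2.96% of all genes were called lower, and Col4a6, Col7a1 and Frem1 are named after their values were seen. Col4a1 fell by 1.87 ± 0.41 (adjusted p = 0.0103, and 0.0616 without castrated luminal replicate 2). In castrated basal cells Col7a1 fell by 2.35 ± 0.46 (adjusted p = 0.0133). The fibroblast marker sums given above moved the same way, and their part in these falls was not tested.

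Of 14 focal adhesion genes, 4 were higher in basal cells of castrated mice and 4 in intact mice. For this list and the desmosome genes below, the shares of all genes called higher were 7.22% in castrated and 8.45% in intact mice. By castration in luminal cells that share was 2.90%. Pxn, the scaffold paxillin, differed by 1.36 and 1.76, and Ilk by 0.78 and 1.62 in castrated and intact mice. Zyx was higher in basal cells of castrated mice, by 0.93, and of intact mice, with a 95% interval of 1.00 to 2.00 (adjusted p = 2.45e-04, and 0.154 with averaged probe sets). Tln1, encoding talin, was higher by 1.31 in castrated mice, but at -0.13 with averaged probe sets (adjusted p = 0.875). The Ilk call in castrated mice was lost in 5 of the 12 analyses without 1 array, and that of Zyx without castrated luminal replicate 1 (adjusted p = 0.0574). Pxn alone was called higher on castration, in luminal cells by 0.76 ± 0.21 (adjusted p = 0.0424). It lost this call in 8 of those 12 analyses and with averaged probe sets (0.3, adjusted p = 0.629). The median over the 14 was 0.47 in castrated and 0.57 in intact mice. Of 9 desmosome genes, which join cells to each other, 4 were higher and 2 lower in basal cells of castrated mice, and 6 higher and 2 lower in intact mice. Among all genes, 11.2% and 11% were called lower. Pkp1 was higher by 3.52 and 4.06 and Pkp2 lower, at -5.03 and -2.64, in castrated and intact mice, where the medians over the 9 were 0.56 and 1.20. Dsp, which encodes desmoplakin, rose in castrated luminal cells by 0.93 ± 0.19 (adjusted p = 0.00599, and 0.137 without the intensity trend), as did Dsc2 (1.52, adjusted p = 0.0495), named after its value was seen. None of the 9 was called by castration in basal cells, where 2 were at an unadjusted p under 0.05 by limma, a threshold that 17.8% of all genes met.

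Likeness of pattern was measured as the root mean square difference of the 4 group means of log2 signal, each gene centred on its own mean, and is a description over 4 points. For Itga6 those points include the basal to luminal difference set by the gate. Nearest to Itga6 of 14644 genes were Sfr1 (0.0246), Nbl1 (0.0424) and Syce1l (0.0437). Nearest to Itgb4 were Ereg (0.100), Tubb6 (0.123) and 1810010H24Rik (0.136). Dim signal limits 3 of these neighbours. Syce1l lay below the 40th percentile on all 3 arrays of either luminal group. Ereg did so on 2 of 3 castrated and 3 of 3 intact luminal arrays, and 1810010H24Rik on 2 of 3 intact luminal arrays. Within the set, Itgb1 ranked 65th for Itga6, at 0.141, and Itgb4 ranked 7665th, at 0.878. Taken from Itgb4, the same difference of 0.878 ranked Itga6 529th, so a rank depends on the gene it is taken from. Lama3 ranked 63rd for Itgb4, at 0.453.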

How the data were processed

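Signal intensity as deposited by the authors came from MAS5, per the submitters' processing notes, and the labels' protocols record amplification of the sorted-cell RNA with a NuGEN Pico kit. Detection calls were not used here. The values were linear. Trimming 2% from either end left a mean of 499.8 on every array, which shows prior scaling to a common target, and array medians were 57.7 to 99.9. The number of arrays limits the precision.

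The table had 45101 probe sets, including 64 controls. By the platform annotation given, 34945 had 1 gene symbol, 932 had several and 9160 had none here. Entrez identifiers matched the GRCm38.p6 gene table for 34741, without any change of symbol. An added 16 preceded the log2. A probe set was kept if it exceeded its array's 40th percentile on 3 or more arrays, and each gene was represented by its brightest probe set on average, leaving 14645 of 18193 genes. One limma 3.58.1 model in R 4.3.3 (lmFit, eBayes with intensity trend) held the 4 group means and left 8 residual degrees of freedom. P-values were adjusted over all genes by Benjamini-Hochberg with a threshold of 0.05, and single probe sets were fitted likewise over 27554. The fit was tested on simulated data. Python 3.11.15 with pandas 2.3.3 and numpy 2.4.6 made the tables and motif searches, and matplotlib 3.10.9 the figures.

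The design text speaks of paired sets of animals, so same-numbered arrays were taken as pairs; their deviations from the group means correlated between -0.00723 and 0.0258 across genes. A replicate block was an alternative, as was a random block of the luminal and basal arrays of a set (consensus correlation 0.0125). The rest were quantile normalization, median centring, added constants of 1 and 64, other filters, fits of 2 groups, no trend, averaged probe sets, array weights and fits without some arrays. Named were the 9 genes in every comparison, up to 4 genes per further list by lowest adjusted p, and Plec and Cd151, with exceptions said where they occur. The genes and lists were chosen with earlier results of these data known. Fermt1, Ptk2 and Dsg3 were not analysed here.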

Additional observations from a re-analysis of the deposited data

Results flagged for a closer look

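The integrin subunit genes Itgb6 and Itgav responded to castration differently in the 2 cell types, by the test of the difference itself in limma. The castration effect in basal cells minus that in luminal cells was -3.38 on the log2 scale for Itgb6 (adjusted p = 0.0350) and -1.42 for Itgav (adjusted p = 0.0362). Both rose in luminal cells, by 3.17 and 1.10, and gave -0.21 and -0.32 in basal cells, neither of which passed. The interaction was no longer past the threshold in 10 of 24 alternative analyses for Itgb6 and in 16 of 24 for Itgav, while its sign held in all of them.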

How the results depend on the processing

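Of 1116 values of the 9 genes under 25 alternatives, 1049 kept their direction and their side of the threshold, 18 lost a call, 10 gained one and 39 changed sign, none of the last with a call on either side. The counts of genes higher in basal cells ranged from 6 to 8 in castrated and 7 to 9 in intact mice when 1 array was left out. For castration in luminal cells the count of 1 became 2 under quantile normalization (adding Itga3), with averaged probe sets (adding Itga6) and without all arrays numbered 3 (adding Lama3), became 4 with array weights (adding Itga6, Itga3 and Lama3), and lay between 1 and 2 when 1 array was left out. In basal cells it was 0 throughout. For the difference between cell types it lay between 0 and 1 when 1 array was left out. The replicate block changed no count of the set, which stayed at 1, 0, 8, 9 and 0, and among the genes named it ended the calls of Lama5 in castrated mice (adjusted p = 0.0530) and of the Itgav difference between cell types (adjusted p = 0.0618). Without the intensity trend the luminal castration calls of Itgav, Pxn and Dsp were lost (adjusted p = 0.0924, 0.208 and 0.137). In the set, the basal over luminal calls of Dst in castrated and intact mice were then lost (adjusted p = 0.0668 and 0.0767). That of Lama3 in castrated mice was lost too (adjusted p = 0.0584). The differences between cell types of Itgb6 and Itgav also no longer passed (adjusted p = 0.121 and 0.251), nor did some basal over luminal calls of further genes named.

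Signs of small differences turned as follows, and the cause was not tested. By castration, Itga3 in basal cells was at -0.07 (quantile normalization), Dst in basal cells at 0.07 (median centring) and 0.20 (arrays numbered 3 left out), Dst in luminal cells at 0.08 (averaged probe sets), and Lamb3 in luminal cells at 0.30 (array weights) and 0.68 (arrays numbered 3 left out). Averaged probe sets turned Tln1 to -0.13 in castrated and Lama5 to -0.02 in intact mice between basal and luminal cells, and both lost their calls. For the difference between cell types, Col17a1 was at -0.32 (quantile normalization), -0.69 (constant 1), -0.35 (array weights) and -0.98 (arrays numbered 3 left out). There, averaged probe sets gave -0.10 for Itgb1, 0.22 for Lama3 and -0.13 for Dst, array weights gave 0.26 for Itgb4, -0.18 for Itgb1 and -0.17 for Lamb3, and leaving out the arrays numbered 3 gave 0.46 for Itgb4, -0.38 for Itgb1 and -0.60 for Lamb3. Leaving out 1 array moved the luminal castration effect between -0.11 and 2.67 for Lama3 and between -1.07 and 0.68 for Lamb3, and the basal one between -0.10 and 0.16 for Itga3 and between -0.45 and 0.09 for Dst. It moved Itga2 between -0.03 and 0.59 for basal over luminal in castrated mice. The difference between cell types then lay between -0.84 and 0.43 for Itgb4, -0.28 and 0.26 for Itgb1, -0.52 and 0.45 for Col17a1, -2.54 and 0.24 for Lama3, -0.54 and 1.22 for Lamb3, and -0.18 and 0.39 for Dst. Dim signal limits the luminal values of Col17a1 and Itga2 in intact mice, each with 2 of 3 arrays below the 40th percentile, and the differences of Itga9 and Col4a2 in castrated and Lama1 in intact mice.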
